A study of Mus musculus with 24 samples.

Results

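The genes described here encode the subunits of the 5 oxidative phosphorylation complexes that are made from nuclear DNA, measured in mouse liver. A gene was a member when a probe set of the array carried only its symbol and that symbol belonged to the Nduf (complex I), Sdh (complex II), Uqcr (complex III), Cox4 to Cox8 (complex IV) or Atp5 (complex V) families, with pseudogenes left out. The rule used names and mean signal only, not any difference between diets. It found 78 genes among the 22180 genes with such a probe set: 33 of complex I, 4 of complex II, 7 of complex III, 17 of complex IV and 17 of complex V. The complex was assigned from the symbol alone, so Ndufa4 and Ndufa4l2 were counted with complex I by name only. Where a gene had several probe sets, as 9 of the 78 did, the set with the highest mean over the fitted arrays was taken.

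Complex I oxidises NADH, and complex II (succinate dehydrogenase, also an enzyme of the citrate cycle) oxidises succinate. Both pass electrons through ubiquinone to complex III and by cytochrome c to complex IV, which reduces oxygen. Complexes I, III and IV pump protons across the inner mitochondrial membrane, and complex V, the ATP synthase, uses that gradient to make ATP. Complex II is built from nuclear genes alone, whereas the other complexes also need subunits encoded in mitochondrial DNA, which are not among the genes described. Liver is rich in mitochondria, and hepatocytes use the chain to re-oxidise the NADH that fatty acid oxidation produces.

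The samples were livers of male C57BL/6J mice that ate the control diet, HFD-corn oil or HFD-EPA/DHA for 8 or 12 weeks, with 4 mice in each of the 6 groups. Both high fat diets (HFDs) held more fat, coconut oil and sucrose than the control diet, with cholesterol added, and they differed in that an oil rich in EPA and DHA, the long-chain n-3 fatty acids, took the place of part of the corn oil. The 8-week and 12-week mice came from 2 separate feeding studies, begun at 9 and 10 weeks of age, so feeding time, age and study cannot be told apart. Mice were chosen for the arrays by body weight and by plasma triglycerides and cholesterol, and mice shared cages, so the p-values below measure the spread between these chosen mice. Levels are log2 signals, and 1 log2 unit is a doubling. The array of replicate 3 of the 8-week HFD-corn oil mice was dropped by the study and also from the fit here, which gave 23 arrays. On that array the members averaged 0.33 log2 below their own means over the fitted arrays (complex II 0.712 below), while the mean over all probe sets was -0.0363. The corresponding medians were -0.193 for the members and 0.032 for all probe sets. The fitted arrays had median correlations with the others of 0.983 to 0.988, against 0.940 for the array left out. The 8 hepatocyte markers read had mean signals at or above the percentile 98 of all probe sets, as the tissue label says. Of these 8, Apoa1 (apolipoprotein A-I) alone was called over both weeks, with a log2 difference of -0.28 for HFD-EPA/DHA (adjusted p = 0.0443 by limma). In that comparison 2.10% of all probe sets were called, and the part of Apoa1 in the results below was not tested.

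Subunit genes of the chain are a classic group of targets of nuclear respiratory factor 1 (NRF1), YY1 and ETS-family factors such as GABP (NRF2), and their start sites were therefore looked at first. The RefSeq promoter table (GRCm38.p6, 250 bases before to 50 after a start site) held 64 of the 78 members, with 69 start sites. The sequences below are the 250 bases before the start site for the muscle-type subunit Cox7a1, on which the diet results turn, for its paralog Cox7a2, used by most tissues, and for 3 members that hold the motifs searched. Capitals mark the letters GCGCANGCG (NRF1, N any base), AAGATGGCG (YY1) and CCGGAAG (ETS), found on either strand.
Cox7a1 (chr7:30183921-30184170, + strand): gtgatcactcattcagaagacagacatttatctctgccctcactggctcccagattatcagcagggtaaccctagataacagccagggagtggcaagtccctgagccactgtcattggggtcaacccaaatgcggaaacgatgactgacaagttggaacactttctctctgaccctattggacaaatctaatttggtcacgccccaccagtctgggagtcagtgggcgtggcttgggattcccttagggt
Cox7a2 (chr9:79759854-79760103, - strand): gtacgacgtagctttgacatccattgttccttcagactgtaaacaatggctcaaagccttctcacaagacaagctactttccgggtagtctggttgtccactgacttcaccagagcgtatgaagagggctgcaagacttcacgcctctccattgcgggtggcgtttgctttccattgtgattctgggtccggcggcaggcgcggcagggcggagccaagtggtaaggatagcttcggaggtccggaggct
Cox6a1 (chr5:115348959-115349208, - strand): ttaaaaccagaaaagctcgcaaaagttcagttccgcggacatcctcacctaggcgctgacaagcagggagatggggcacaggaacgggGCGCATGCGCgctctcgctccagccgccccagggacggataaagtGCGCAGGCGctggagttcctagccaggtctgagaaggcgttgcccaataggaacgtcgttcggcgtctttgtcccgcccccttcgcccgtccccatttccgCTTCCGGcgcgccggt
Sdhd (chr9:50603850-50604099, - strand): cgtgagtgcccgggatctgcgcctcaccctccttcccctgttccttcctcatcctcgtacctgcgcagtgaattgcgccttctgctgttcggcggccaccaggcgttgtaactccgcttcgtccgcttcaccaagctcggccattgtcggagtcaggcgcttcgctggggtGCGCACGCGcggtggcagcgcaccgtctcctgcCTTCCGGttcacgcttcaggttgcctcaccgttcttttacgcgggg
Atp5j, start site 2 (chr16:84834977-84835226, - strand): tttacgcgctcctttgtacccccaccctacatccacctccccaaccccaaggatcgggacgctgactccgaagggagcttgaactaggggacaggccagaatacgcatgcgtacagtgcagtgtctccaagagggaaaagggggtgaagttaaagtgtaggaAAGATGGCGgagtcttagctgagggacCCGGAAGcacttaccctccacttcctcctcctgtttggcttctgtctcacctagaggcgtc

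Among the sequences printed, those of Cox7a1 and Cox7a2 held none of these letters. Cox6a1, the liver form of its subunit, held the palindrome GCGCATGCGC, in which both strands match and overlap, a further relaxed NRF1 match, and an ETS match on the opposite strand. The stricter letters GCGCATGCG stood in 8 of the 64 members (12.5%) within the whole window, against 1.95% of the 27025 genes in the table. The relaxed letters stood in 18 members (28.1% against 7.03%), AAGATGGCG in 6 (9.38% against 1.64%) and CCGGAAG in 17 (26.6% against 9.93%). The relaxed NRF1 letters include the stricter ones. The member windows also had a higher median GC content, 57.3% against 52.7%, and the part of that difference in the motif shares was not tested. A match is a description of letters and not a binding site, and a missing match says only that these letters are not in this window.

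Mean signals of 71 of the 78 members lay above 7.16, the median of all probe-set means. That limit alone does not show strong expression in liver, as the skeletal muscle actin Acta1 lay above it too (7.869, percentile 67.1). Cox7a1 had a mean of 8.04 (percentile 70), near that of Acta1, against 11.94 (percentile 98.6) for its paralog Cox7a2. The 7 members at or below the median were Ndufa4l2, Cox6b2, Cox7b2, Cox8b, Cox8c, Atp5c1 and Atp5j2. Of these, 5 are isoforms of other tissues or of hypoxic cells, whereas Atp5c1 (the gamma subunit of the rotor) and Atp5j2 (subunit f) have no other isoform gene among the members. Members were also measured more tightly than the array as a whole, with a median residual SD of 0.115 log2 against 0.156 over all 41345 probe sets. By complex it ran from 0.0862 in complex III to 0.132 in complex IV. A further 8 subunit symbols (Uqcr10, Ndufs6, Ndufs6b, Cox6c, Ndufb4, Ndufb4b, Ndufb4c and Ndufb2) stood only on probe sets that carry several symbols and were not counted.

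Averaged over its subunits, each complex had group means between -0.0487 and 0.0594 log2 of its usual level, and the mice of different diets overlapped. Each member was set against its own mean over the 23 arrays, so 0 means the gene's usual level. Complex I averaged -0.0487 ± 0.0645 (SD, n = 4) in control livers at 8 weeks, 0.00256 ± 0.0587 in HFD-EPA/DHA (n = 4) and -0.0149 ± 0.0632 in HFD-corn oil (n = 3). At 12 weeks the corresponding levels were 0.00314 ± 0.0934, 0.04 ± 0.0405 and 0.0142 ± 0.0427 (n = 4 each). Single mice of every group overlapped with those of the others, and the differences between diets were smaller than the spread between mice.

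**Figure D1:**
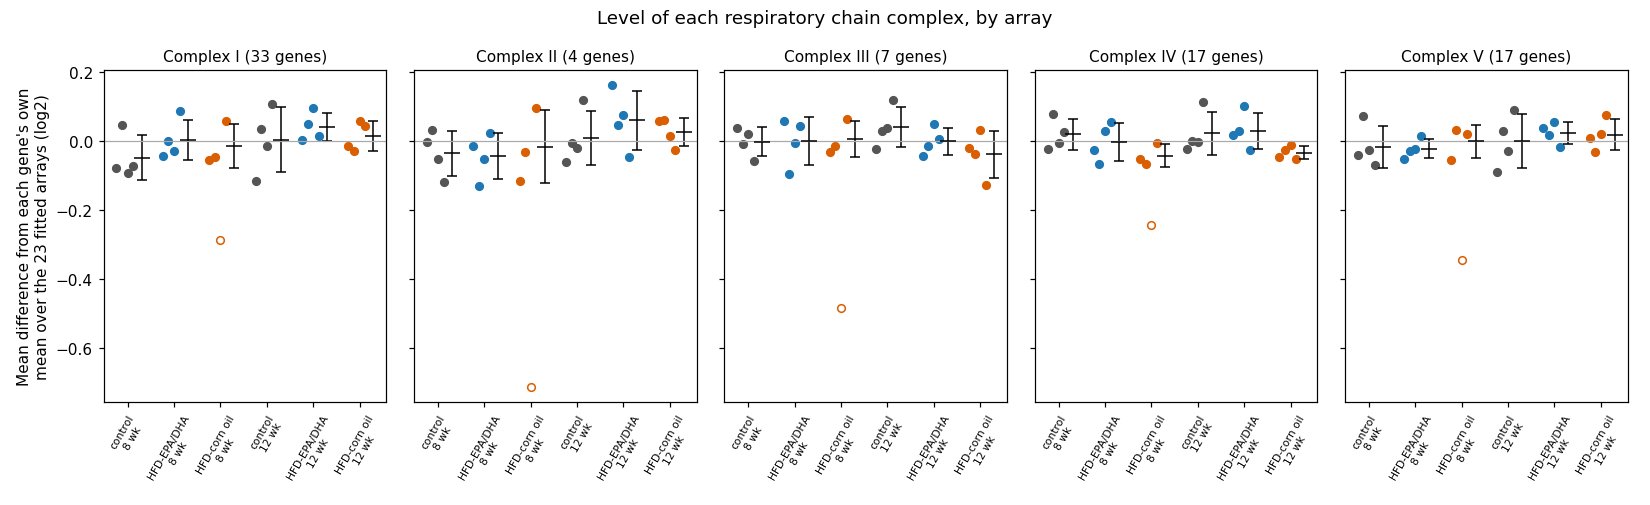
Mean level of the subunits of complexes I to V on each array (y axis, log2 difference from each gene's own mean over 23 arrays) for the 6 diet-by-week groups; points are mice, bars the mean with SD over the fitted mice, and the open symbol is the array left out of the fit. Fitted mice of the diets overlap in every complex, and the open symbol lies below them all.

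Complex II averaged -0.0362 ± 0.0647 in control livers, -0.0444 ± 0.066 with HFD-EPA/DHA and -0.017 ± 0.105 with HFD-corn oil at 8 weeks, and 0.008 ± 0.0777, 0.0594 ± 0.0858 and 0.026 ± 0.0406 at 12 weeks. Complex III ran from -0.0395 ± 0.0668 (HFD-corn oil, 12 weeks) to 0.0399 ± 0.0588 (control, 12 weeks), and complex V from -0.0226 ± 0.0279 (HFD-EPA/DHA, 8 weeks) to 0.023 ± 0.0316 (HFD-EPA/DHA, 12 weeks). Single mice of these groups overlapped in each complex. Complex IV was the one with its HFD-corn oil means on the low side at both weeks, -0.0426 ± 0.0322 (n = 3) against 0.0184 ± 0.0435 in controls at 8 weeks, and -0.0348 ± 0.0188 against 0.0213 ± 0.0613 at 12 weeks. Even there the single mice overlapped, from -0.0529 to -0.0126 with HFD-corn oil and from -0.0233 to 0.112 in controls at 12 weeks. With Cox7a1 left out, a choice made after its values were seen, the complex IV means were -0.0338 against 0.00656 at 8 weeks and -0.0279 against 0.00155 at 12 weeks.

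The complexes did not all move together from mouse to mouse. In 3 arrays all 5 complexes lay above 0 (HFD-EPA/DHA replicate 4 at 8 weeks and replicate 3 at 12 weeks, control replicate 4 at 12 weeks), in 3 all lay below it (HFD-EPA/DHA replicate 2 and HFD-corn oil replicate 1 at 8 weeks, control replicate 1 at 12 weeks), and in 17 they were mixed. The widest pair was within a single group: control replicate 4 at 12 weeks averaged 0.106 over all members and control replicate 1 averaged -0.0788.

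Gene by gene, the clearest difference with diet was a lower level of Cox7a1, the complex IV subunit isoform typical of heart, skeletal muscle and brown fat. Its signal was 8.10, 8.20, 8.15 and 8.56 in the 4 control livers at 8 weeks. It was 7.79, 8.02, 7.97 and 8.06 with HFD-EPA/DHA and 7.71, 7.81 and 8.07 with HFD-corn oil (7.03 on the array left out). At 8 weeks every HFD liver thus lay below every control liver, by a narrow margin at the top of each HFD group. The 12-week controls gave 8.24, 8.20, 8.51 and 8.57, the HFD-EPA/DHA livers 7.88, 7.75, 8.11 and 7.72, and the HFD-corn oil livers 7.81, 7.87, 8.02 and 7.89. The groups of that week were again separate, with both HFD groups below the controls and overlapping each other.

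Tested within each week by limma with Benjamini-Hochberg adjustment over all 41345 probe sets, Cox7a1 fell with HFD-EPA/DHA at 12 weeks by 0.52 on the log2 scale (SE 0.114, adjusted p = 0.031), a ratio of 0.699. It was the only member called in that comparison, in which 0.617% of all probe sets were called. The 12-week difference with HFD-corn oil was -0.48 (SE 0.114, adjusted p = 0.103, ratio 0.716), and those at 8 weeks were -0.29 (SE 0.114, adjusted p = 0.442) with HFD-EPA/DHA and -0.39 (SE 0.123, adjusted p = 0.218) with HFD-corn oil. None of these 3 passed the threshold of 0.05. The 12-week call was lost when control replicate 3 or 4 or HFD-EPA/DHA replicate 1, 2 or 4 was left out (adjusted p 0.0153 to 0.147 over the arrays left out in turn, log2 change -0.598 to -0.454). In whole liver, fewer cells that express a gene and less of its RNA per cell cannot be told apart.

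With both weeks averaged, Cox7a1 fell with HFD-EPA/DHA by 0.40 (SE 0.0808, adjusted p = 0.0053 by limma, ratio 0.756 with a 95% interval of 0.673 to 0.849) and with HFD-corn oil by 0.44 (SE 0.0841, adjusted p = 0.00594, ratio 0.739, 0.655 to 0.834). In each of these comparisons it was again the only member called, of 78, where 2.10% and 1.91% of all probe sets were called. The comparisons share their control mice and are not independent of each other. With the array that was left out put back, the adjusted p was 0.0667 with HFD-EPA/DHA over both weeks and 0.260 at 12 weeks, and both calls were lost, while the log2 changes were -0.404 and -0.516 as before. With that array put back and arrays weighted by limma, the adjusted p was 0.00210 and 0.0153, and both calls held. The HFDs themselves differed by 0.03 in Cox7a1 (95% interval -0.14 to 0.21, adjusted p = 0.951), so a difference between the fat sources beyond 0.21 in size was outside the interval. The change of the diet difference from 8 to 12 weeks was -0.22 with HFD-EPA/DHA (adjusted p = 0.983) and -0.09 with HFD-corn oil (adjusted p = 1.00).

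**Figure D2:**
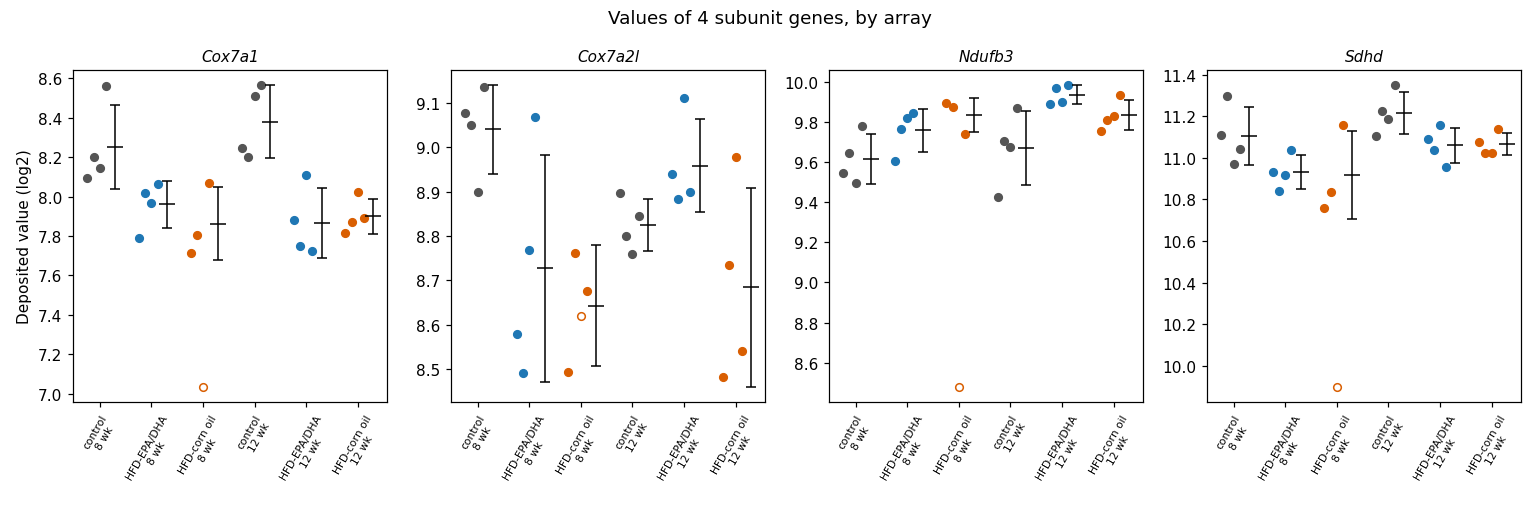
Signal (y axis, log2, a scale of its own for each gene) on each array of the 6 groups for Cox7a1, Cox7a2l, Ndufb3 and Sdhd. Points are mice, bars the mean with SD over the fitted mice, and the open symbol is the array left out of the fit. Cox7a1 lies lower in every HFD liver than in every control liver of the same week, while the other 3 genes overlap in at least some of these comparisons.

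The paralog Cox7a2, which most tissues use in place of Cox7a1, differed from control by -0.02 with HFD-EPA/DHA (95% interval -0.13 to 0.08) and by -0.08 with HFD-corn oil (-0.19 to 0.03) over both weeks. Since Cox7a1 is a muscle and brown fat form, markers of those tissues were read beside it, from a list of 4 genes each. Of the 4 muscle genes 0 were called over both weeks, where 2.10% of all probe sets were called with HFD-EPA/DHA and 1.91% with HFD-corn oil. At such shares a count of 0 among 4 genes carries little information. With HFD-EPA/DHA and HFD-corn oil the differences were 0.03 and -0.02 for Acta1 (the actin of skeletal muscle) and 0.04 and -0.02 for Ckm (muscle creatine kinase). They were -0.01 and -0.06 for Mylpf and 0.12 and 0.07 for Myh4 (fast muscle myosin chains). The summed signal of the muscle list, on the log2 scale, was 9.13 to 9.25 in controls, 9.17 to 9.26 with HFD-EPA/DHA and 9.10 to 9.16 with HFD-corn oil at 8 weeks, and 9.05 to 9.27, 9.13 to 9.26 and 9.10 to 9.30 at 12 weeks. These summed ranges overlapped. The mean log2 signal of the 4 muscle genes overlapped too, except with HFD-corn oil at 8 weeks. There it was 7.04 to 7.05, below the 7.08 to 7.21 of the controls, and the part of this in the Cox7a1 difference was not tested. Of the 4 adipocyte genes 0 were called either, beside the same shares of all probe sets. With HFD-EPA/DHA and HFD-corn oil Ucp1, the uncoupling protein of brown fat, differed by -0.11 and -0.12 and Adipoq by 0.11 and -0.07. Plin1 differed by 0.04 and -0.08 and Lep by 0.02 and 0.22, so the adipocyte genes did not share a direction. Their summed signal was 8.92 to 9.07, 8.90 to 9.27 and 8.85 to 9.01 at 8 weeks and 8.93 to 9.10, 8.94 to 9.10 and 8.95 to 9.06 at 12 weeks, and again overlapped. Whether cells other than hepatocytes carry the Cox7a1 signal was not tested.

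The other isoforms of complex IV that belong to other tissues did not pass the test in any of the 15 comparisons. They are Cox4i2, the lung and hypoxia form, Cox6a2 and Cox8b, the heart and muscle forms, and Cox6b2, Cox7b2 and Cox8c, known from testis. Within a week their largest differences were 0.23 for Cox4i2 (HFD-EPA/DHA against HFD-corn oil, 8 weeks), 0.22 for Cox6a2 (HFD-EPA/DHA against HFD-corn oil, 12 weeks) and 0.22 for Cox8b (HFD-EPA/DHA against control, 12 weeks). The isoforms used by most tissues, Cox4i1, Cox5a, Cox5b, Cox6a1, Cox6b1, Cox7a2, Cox7b, Cox7c and Cox8a, stayed between -0.15 (Cox7c) and 0.19 (Cox8a) within a week, with a smallest adjusted p of 0.515.

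Cox7a2l, the supercomplex assembly factor SCAF1 that joins complexes III and IV, had the lowest 8-week differences among the members. Controls at 8 weeks gave 9.08, 9.05, 8.90 and 9.14, HFD-EPA/DHA livers 8.58, 8.49, 8.77 and 9.07, and HFD-corn oil livers 8.49, 8.76 and 8.68 (8.62 on the array left out). All the fitted HFD-corn oil livers lay below the controls, and 1 HFD-EPA/DHA liver lay among them. At 12 weeks the values were 8.90, 8.80, 8.76 and 8.84 in controls, 8.94, 8.88, 9.11 and 8.90 with HFD-EPA/DHA, and 8.48, 8.73, 8.98 and 8.54 with HFD-corn oil, so that HFD-EPA/DHA was on the high side and HFD-corn oil spread to both sides. By limma the log2 differences from control were -0.31 (adjusted p = 0.362) and -0.40 (0.197) at 8 weeks and 0.13 (0.853) and -0.14 (0.803) at 12 weeks. Over both weeks HFD-corn oil differed by -0.27 (adjusted p = 0.115), which became -0.318 (adjusted p = 0.0454) without HFD-corn oil replicate 3 at 12 weeks. The change of the HFD-EPA/DHA difference between the weeks, 0.45 (SE 0.161), had an adjusted p of 0.983.

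**Figure D3:**
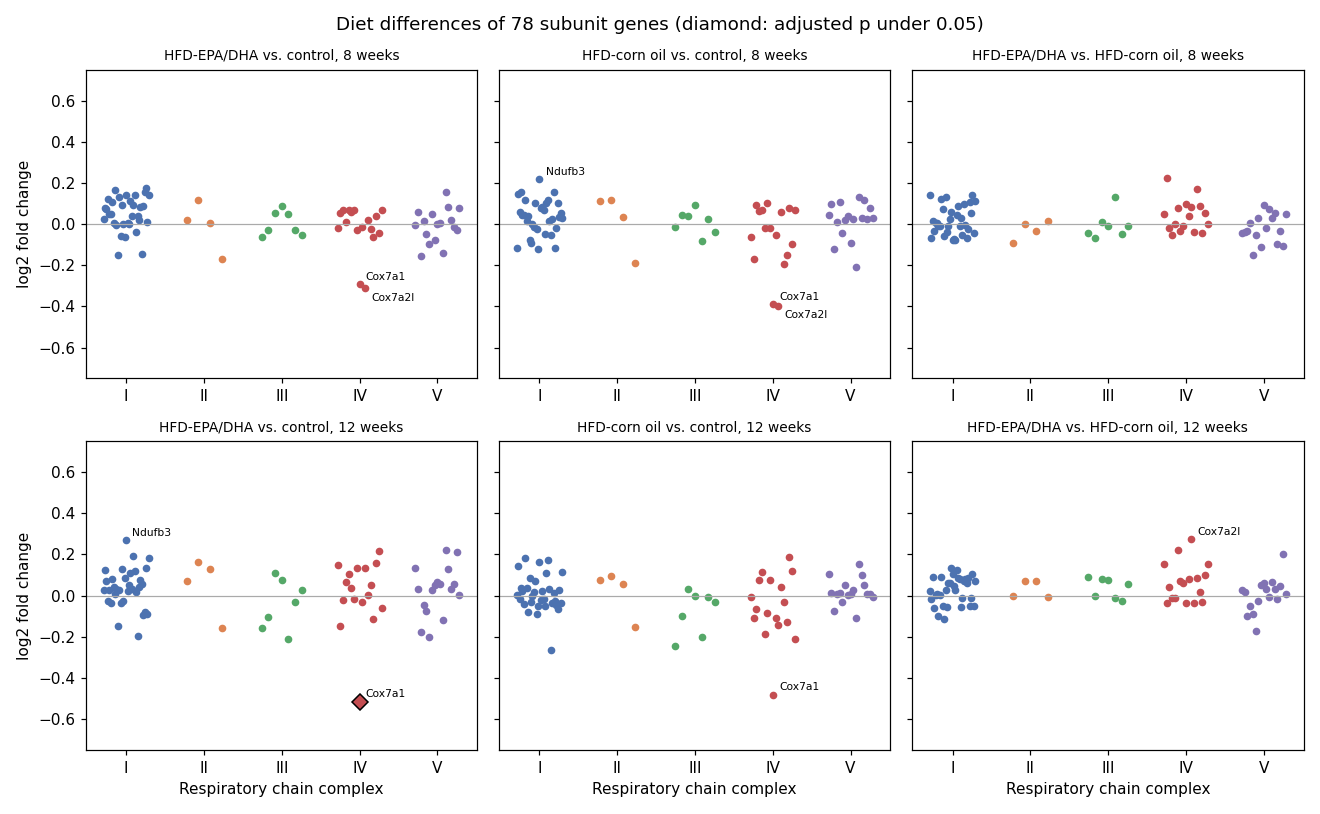
Log2 difference of every member between diets (y axis; points, grouped by complex on the x axis) at 8 weeks (upper row) and 12 weeks (lower row), with the HFDs set against each other in the right-hand panels. The diamond, Cox7a1 with HFD-EPA/DHA at 12 weeks, is the only point with an adjusted p under 0.05.

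The members of complex I lay close to control. Ndufb3, an accessory subunit of its membrane arm, had the highest difference of all members over both weeks with each HFD. Its signal was 9.54, 9.65, 9.50 and 9.78 in controls at 8 weeks, 9.61, 9.77, 9.82 and 9.85 with HFD-EPA/DHA, and 9.89, 9.88 and 9.74 with HFD-corn oil (8.48 on the array left out). At 12 weeks controls gave 9.43, 9.71, 9.67 and 9.87, HFD-EPA/DHA livers 9.89, 9.97, 9.90 and 9.98, and HFD-corn oil livers 9.76, 9.81, 9.83 and 9.93. The HFD-EPA/DHA livers of 12 weeks all lay above the controls, and the other HFD groups overlapped with theirs. By limma the 12-week difference was 0.27 (SE 0.0887, adjusted p = 0.258), and over both weeks it was 0.20 (adjusted p = 0.112) and 0.19 (adjusted p = 0.170) with HFD-EPA/DHA and HFD-corn oil. The 6 genes grouped here as the redox part of complex I were Ndufs1, Ndufs3, Ndufs7, Ndufs8, Ndufv1 and Ndufv2. They ranged within a week from -0.27 (Ndufs1, HFD-corn oil, 12 weeks) to 0.18 (Ndufv1, HFD-EPA/DHA, 8 weeks), and the smallest adjusted p was 0.614. Ndufv1 ranged from 10.96 to 11.17 in controls and from 11.19 to 11.31 with HFD-EPA/DHA at 8 weeks, and the 12-week ranges, 10.96 to 11.18 and 11.16 to 11.37, overlapped. The other 27 subunits had no adjusted p below 0.258 within a week.

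In complex II the members went apart. Sdhd, a membrane anchor, gave 11.11, 11.30, 10.97 and 11.04 in controls at 8 weeks, 10.93, 10.84, 10.92 and 11.04 with HFD-EPA/DHA, and 10.76, 10.84 and 11.16 with HFD-corn oil (9.90 on the array left out). At 12 weeks it gave 11.10, 11.22, 11.19 and 11.35 in controls, 11.09, 11.04, 11.16 and 10.96 with HFD-EPA/DHA, and 11.08, 11.02, 11.02 and 11.14 with HFD-corn oil. Groups overlapped in each of these comparisons. Over both weeks Sdhd differed by -0.16 (adjusted p = 0.298 by limma) and -0.17 (adjusted p = 0.262), and Sdhb, the iron-sulphur subunit, by 0.14 (0.372) and 0.10 (0.523) with HFD-EPA/DHA and HFD-corn oil. Neither gene passed the threshold. The flavoprotein Sdha lay between -0.09 and 0.11 within a week.

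In complex III, Uqcrfs1, the Rieske iron-sulphur protein, differed from control at 12 weeks by -0.21 with HFD-EPA/DHA and -0.20 with HFD-corn oil, while the core proteins Uqcrc1 and Uqcrc2 lay between -0.01 and 0.11 in the 6 comparisons within a week, and the smallest adjusted p of the 3 core genes was 0.558. Uqcrfs1 ranged from 10.13 to 10.31 in the 12-week controls, from 9.65 to 10.23 with HFD-EPA/DHA and from 9.98 to 10.04 with HFD-corn oil, so that the HFD-corn oil livers alone lay apart from the controls. At 8 weeks the fitted HFD-corn oil livers, at 10.01 to 10.04, also lay narrowly below the controls, at 10.05 to 10.25. The 4 small subunits ranged from -0.25 (Uqcr11, HFD-corn oil, 12 weeks) to 0.09. In complex V the 6 genes of the catalytic head and stalk cap, among them Atp5a1 and Atp5b, ranged within a week from -0.18 (Atp5c1) to 0.21 (Atp5o), with a smallest adjusted p of 0.668. The genes of the rotor ring, Atp5g1, Atp5g2 and Atp5g3, encode the same mature c subunit. Atp5g1 differed by -0.20 with HFD-EPA/DHA at 12 weeks, the lowest of the ring, with signals of 7.05 to 7.46 in controls and 7.02 to 7.23 with that diet. The 8 genes of the side stalk and membrane part lay between -0.21 (Atp5j2) and 0.22 (Atp5k), with no adjusted p below 0.643.

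Counted without adjustment, the members with p under 0.05 made up a share close to or below that of all probe sets. Against control they were 3 of 78 with HFD-EPA/DHA and 3 with HFD-corn oil at 8 weeks, where 8.05% and 8.23% of all probe sets passed the same limit (after adjustment 0.443% and 0.738%, and no member). At 12 weeks they were 5 and 3, beside 8.44% and 8.53% of all (0.179% after adjustment with HFD-corn oil, and no member). Over both weeks they were 8 and 9, that is 10.3% and 11.5%, beside 9.98% and 12.2% of all. The 8 with HFD-EPA/DHA were Cox7a1, Ndufb3, Ndufv1, Ndufb9, Ndufa6, Sdhd, Sdhb and Atp5g1, and the 9 with HFD-corn oil were Cox7a1, Cox7a2l, Ndufb3, Ndufa10, Ndufa3, Sdhd, Cox7c, Cox8a and Atp5j2.

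Between the HFDs, which differed both in EPA and DHA and in the amount of corn oil, no member was called. Under the unadjusted limit there were 0 members at 8 weeks (6.92% of all probe sets, 0.0266% after adjustment), 2 at 12 weeks (4.63% and 0.00967%) and 2 over both weeks (7.21% and 0.0653%). Both times the 2 were Cox7a2l and Cox6a2, with 0.27 and 0.22 at 12 weeks and 0.18 and 0.15 over both weeks higher with HFD-EPA/DHA. The 95% interval of the difference lay within 0.5 log2 on either side of 0 for all 78 members at 8 weeks and over both weeks and for 77 of 78 at 12 weeks.

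**Figure D4:**
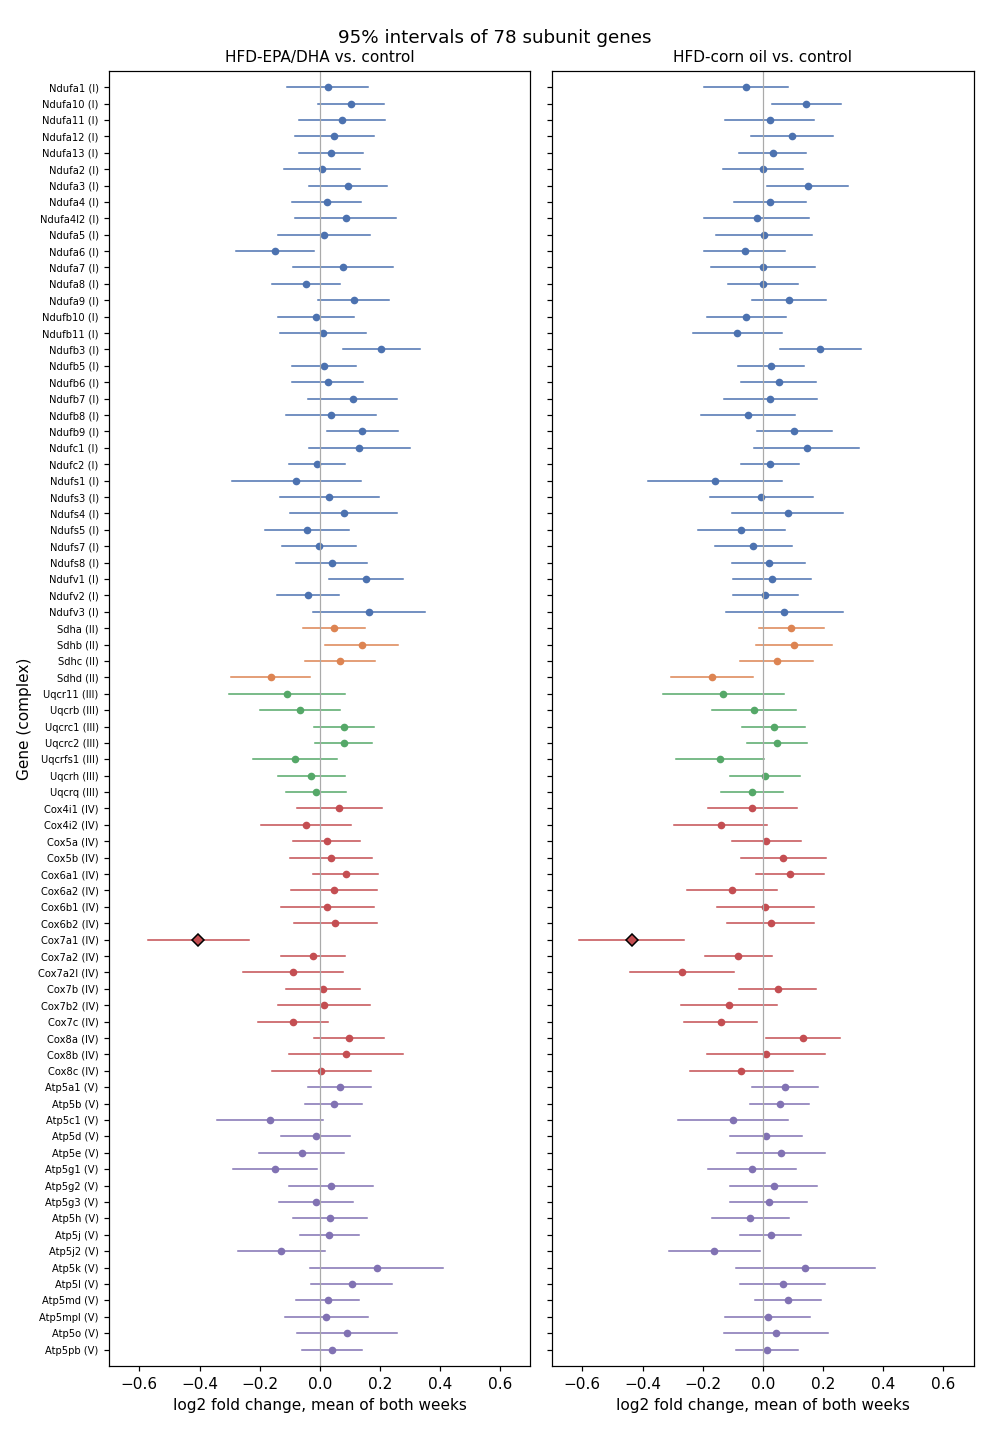
Log2 difference from control over both weeks (x axis, points) with its 95% interval (bars) for each of the 78 members (y axis, coloured by complex), with HFD-EPA/DHA on the left and HFD-corn oil on the right. The diamonds mark Cox7a1, the only member with an adjusted p under 0.05, and the intervals of the other 77 members lie within 0.5 log2 of 0.

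Changes over time were tested too. The diet differences themselves changed from 8 to 12 weeks for no member after adjustment, and for no probe set (0% called). Unadjusted, 2 members were under 0.05 for HFD-EPA/DHA against control (Cox7a2l 0.45 and Ndufs8 -0.23), and 0 for HFD-corn oil against control and for HFD-EPA/DHA against HFD-corn oil, beside 4.95%, 3.64% and 4.46% of all probe sets. Within a diet, 12 against 8 weeks gave no member called in controls (0.00967% of probe sets called) or with either HFD (0% of probe sets). Unadjusted counts were 0, 1 and 0 members (the 1 was Cox6b2 with HFD-EPA/DHA, 0.23), beside 6.89%, 5.49% and 3.32% of all probe sets, in the order controls, HFD-EPA/DHA and HFD-corn oil.

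The median of the members lay above that of all probe sets in each of the 4 comparisons of an HFD with control within a week. Their median difference from control was 0.0194 with HFD-EPA/DHA and 0.0302 with HFD-corn oil at 8 weeks, and 0.0337 and 0.00218 at 12 weeks, while all probe sets had medians of 0.00566, -0.0287, -0.00892 and -0.0093. Probe sets with 1 symbol had medians of 0.0107, -0.0156, 0.000829 and 0.00112, close to the members with HFD-corn oil at 12 weeks. The mean of all members had an SD of 0.0494 between mice of a group. Over both weeks 53 of 78 members (67.9%) lay above 0 with HFD-EPA/DHA (median 0.0285) and 48 (61.5%) with HFD-corn oil (median 0.0141). The shares were 49.2% and 42.2% of all probe sets, and 52.3% and 46.7% of those with 1 symbol. By complex, 25 of 33 complex I members lay above 0 with HFD-EPA/DHA and 21 with HFD-corn oil. The counts were 3 and 3 of 4 in complex II and 2 and 3 of 7 in complex III. They were 12 and 8 of 17 in complex IV, and 11 and 13 of 17 in complex V. With 95% intervals within 0.5 log2 of 0 for 77 of 78 members with either HFD over both weeks, larger differences were outside the interval for all members but Cox7a1.

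The 8-week and 12-week comparisons share no arrays, so they can be set side by side. With HFD-corn oil, 58 of the 78 members (74.4%) had the same sign of the difference from control at both weeks, against 59.3% of all probe sets and 63.5% of those above the median signal. With HFD-EPA/DHA it was 51 (65.4%), against 53.3% and 55.8%. Between the HFDs it was 44 (56.4%), against 53.8% and 57.6%. Across the 78 genes, which are not independent replicates, Pearson's r between weeks was 0.604 with HFD-corn oil and 0.449 with HFD-EPA/DHA, and 0.506 and 0.325 without Cox7a1. Over all probe sets above the median signal r was 0.505 and 0.471, and over all probe sets 0.425 and 0.396. These are descriptions of a list measured in the same livers.

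Genes that build, feed or regulate the chain were read from 6 further lists. Of 48 measured assembly factors, 2 rose with HFD-EPA/DHA and 3 with HFD-corn oil over both weeks, and none fell, where 1.91% of all probe sets were called with HFD-corn oil and 2.10% with HFD-EPA/DHA. Uqcc2, needed to assemble complex III, rose with both, by 0.27 (adjusted p = 0.0176 by limma) and 0.28 (0.0178). Acad9, a complex I assembly factor and acyl-CoA dehydrogenase, rose with HFD-corn oil by 0.28 over both weeks (adjusted p = 0.0194) and by 0.40 at 8 weeks (0.0415), where it was the 1 factor called (0.738% of all probe sets). Nubpl, which places iron-sulphur clusters in complex I, rose with HFD-EPA/DHA by 0.31 (0.0398), and Cox16, a complex IV assembly factor, rose with HFD-corn oil by 0.20 (0.0352). Among the subunit genes described here Cox7a1, which fell, was the only one called over both weeks. Subunits encoded in mitochondrial DNA were not among them. Of 12 citrate cycle genes Suclg2, a subunit of succinyl-CoA ligase, rose with HFD-EPA/DHA by 0.20 (adjusted p = 0.0349), and of 71 mitochondrial ribosome genes Mrpl14 rose by 0.26 (0.0223) with the same diet, 1 gene in each list where 2.10% of all probe sets were called. No gene passed among 16 electron carriers, 9 carriers and uncoupling proteins or 13 regulators. Within the regulators Ppargc1a, the coactivator PGC-1 alpha that drives mitochondrial biogenesis, had the lowest differences, -0.68 with HFD-corn oil at 8 weeks and -0.98 with HFD-EPA/DHA at 12 weeks, where the smallest adjusted p of the list was 0.159.

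The lists differed in their medians. Over both weeks the median difference from control with HFD-EPA/DHA and HFD-corn oil was 0.0645 and 0.0415 for the assembly factors (37 and 32 of 48 above 0), 0.1 and 0.0698 for the electron carriers (13 and 13 of 16) and 0.0268 and 0.0462 for the citrate cycle (7 and 7 of 12). It was 0.0397 and 0.000791 for the mitochondrial ribosome (51 and 38 of 71), -0.0342 and -0.00241 for the carriers and uncoupling proteins (2 and 4 of 9) and -0.027 and -0.0864 for the regulators (5 and 3 of 13). The subunits had medians of 0.0285 and 0.0141, and all probe sets -0.00166 and -0.0196, with 49.2% and 42.2% of all probe sets above 0. No test was made of these medians.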

How the data were processed

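Liver RNA of each mouse was hybridised to a GeneChip Mouse Gene 2.0 ST array. The authors deposited summarised log2 values, made in Expression Console with the iter-PLIER algorithm on perfect-match probes and quantile normalization across arrays. The log2 scale was read from the values (array medians near 7). Gene symbols came from GEO's platform annotation, and pairs of symbols on a probe set were not used. The members and lists were chosen with earlier results of these data known. Of 24 arrays 23 were fitted: the array of HFD-corn oil replicate 3 at 8 weeks was left out, as in the study. With 3 or 4 mice a group, the number of arrays limits the precision.

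limma 3.58.1 (R 4.3.3) fitted the 6 groups as a means model to all 41345 probe sets, without a filter on low values, with 17 residual degrees of freedom before moderation. It tested 15 comparisons, and the Benjamini-Hochberg adjustment took in every probe set of a comparison, with a threshold of 0.05. The rule for named genes took members past the threshold in any comparison, the member of each complex with the smallest p in each comparison within a week, 10 core subunits, 8 isoforms of other tissues or conditions, and any member whose probe sets disagree in a called comparison (there was none). Other members are named for the lowest or highest value of a group or as paralogs, after their values were seen. The script was checked on simulated data first. Alternatives were the left-out array kept, only the groups compared, a filter on low values, other centrings, the replicate number as a block, and fits without each single array. The RefSeq promoter table gave sequences, and motifs were searched on both strands. Array intensities before summarisation were not used here.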

Additional observations from a re-analysis of the deposited data

Results flagged for a closer look

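The values of the 5 complexes and of 28 named genes were looked at in each of the 6 groups of 4 arrays for a mouse far from the other 3, by Dixon's ratio. Of these 198 sets of values 19 were flagged, and chance alone flags about 1 in 20. The array left out of the fit, HFD-corn oil replicate 3 at 8 weeks, gave 5 of them, all low: Uqcrc2 at 11.38, Ndufb3 at 8.479, Sdha at 10.92, Uqcrfs1 at 9.425 and Ndufs1 at 9.74. The other 14 lie on fitted arrays.

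Control replicate 2 at 8 weeks stood above the other controls in complex I as a whole (0.0472 log2 above the genes' own means) and in Cox4i2 (8.887), Cox4i1 (11.62) and Cox6a2 (7.736). Control replicate 4 at 8 weeks stood apart in Uqcrc2 (12.1), and control replicate 4 at 12 weeks in Uqcrc2 (12.3) and Atp5j2 (6.791). The other 12-week controls gave Ndufv1 at 10.96 in replicate 1, Cox6b2 at 6.548 in replicate 2 and Atp5b at 12.95 in replicate 3. With HFD-EPA/DHA the values were Cox6a2 at 7.763 in replicate 4 at 8 weeks and Sdha at 12.14 in replicate 1 at 12 weeks. With HFD-corn oil they were Cox8c at 5.729 in replicate 2 at 8 weeks and Sdhb at 11.15 in replicate 4 at 12 weeks. Cox7a1 and Cox7a2l were not among the genes flagged.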

How the results depend on the processing

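Counts of members called, medians of members and named genes were recomputed under 12 other settings and with each fitted array left out in turn. Keeping all 24 arrays changed most. It moved the members' median to -0.0466 for HFD-corn oil against control at 8 weeks (from 0.0302), to 0.0533 for HFD-EPA/DHA against HFD-corn oil at 8 weeks (from -0.00275), to 0.0461 and -0.0538 for the changes from 8 to 12 weeks of HFD-corn oil against control and of HFD-EPA/DHA against HFD-corn oil (from -0.00908 and 0.04), and to 0.0879 for HFD-corn oil at 12 against 8 weeks (from 0.0111). It turned Ndufb3 (-0.121) and Uqcrc2 (-0.129) with HFD-corn oil at 8 weeks and Sdha between the HFDs at 8 weeks (0.18), none of them past the threshold. With it 0 members were called with HFD-EPA/DHA at 12 weeks and 0 over both weeks. These changes follow from the low array itself. With only the groups compared in the fit, 0 members were called with HFD-EPA/DHA at 12 weeks (Cox7a1 adjusted p = 0.0833 by limma). With a separate fit for each week the Cox7a1 call held (adjusted p = 0.0436 by limma). With the replicate number as a block 1 member, Cox7a1, was called with HFD-corn oil at 12 weeks (adjusted p = 0.0300). The labels do not say whether the numbers pair the mice. Same-numbered pairs from different groups had correlations of -0.308 to 0.26 (median 0.0432, 14 of 55 above 0.1). Pairs with different numbers had correlations of -0.265 to 0.384 (median -0.0191, 26 of 165 above 0.1), and these values do not settle the question. Comparisons of 12 with 8 weeks were not fitted with the block. Leaving out 1 array gave 0 to 1 members called with HFD-EPA/DHA at 12 weeks and 1 to 2 with HFD-corn oil over both weeks. Over all these alternatives, Cox7a1 kept an adjusted p under 0.05 in 33 of 34 with HFD-EPA/DHA over both weeks, in 34 of 34 with HFD-corn oil over both weeks and in 28 of 35 with HFD-EPA/DHA at 12 weeks. The relaxed NRF1 letters raised the share of genes with a match from 12.5% to 28.1% in members and from 1.95% to 7.03% in all genes. Means of the complexes moved by less than 1 SD under other centrings. With 4 mice a group, changes of a diet difference between weeks were measured least well: 71 of 78 members had intervals within 0.5 log2 for either HFD against control.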

Other observations

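A second probe set of Atp5h, a subunit of the side stalk of ATP synthase, was not the one chosen by the rule, and differed from it: with HFD-corn oil over both weeks its log2 difference from control was -0.308, and its smallest adjusted p over the comparisons was 0.0622 (limma). The chosen probe set of Atp5h differed by -0.04 (adjusted p = 0.847). Neither passed the threshold.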
